A study of Homo sapiens with 6 samples.

Results

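The 49 genes described here encode the proteins that copy DNA in S phase and the enzymes that supply its building blocks. They were taken from a fixed list of names, and RPKM (reads scaled to transcript length and to library size) was summed over all annotated transcripts of each gene. All 49 were found among the 26409 genes with a row in the table, and all 49 passed the filter of more than 1 RPKM in at least 3 libraries. The cells are SUM1315, an established line from a triple-negative breast cancer, with the genotype labelled WT. They were grown with serum, insulin and EGF and kept for 24 h in normoxia (21% O2, 3 libraries) or, in a modular chamber with nitrogen as the balance, in hypoxia (1% O2, 3 libraries). The study's stated subject was ribosome and ribosomal RNA production in low oxygen, and replication was no part of that question. All measurements are from 1 line at 1 time.

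A human chromosome is copied from many origins. In G1 the origin recognition complex (ORC), CDC6 and CDT1 load the ring of MCM2 to MCM7 onto DNA, a step called licensing, and geminin (GMNN) blocks CDT1 once S phase has begun. The kinases CDC7-DBF4 and cyclin E with CDK2 then turn each ring into an active helicase by adding CDC45 and the GINS complex, after which polymerases alpha, delta and epsilon, the clamp PCNA and its loader RFC build the new strands. E2F factors switch on most of these genes when RB is phosphorylated, and many of the proteins are made in one window of the cycle. In bulk RNA a lower share of cells in S phase and less RNA per cell cannot be told apart.

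Because E2F is the factor most closely tied to these genes, their promoters were searched for its binding words, and 5 windows are printed: both genes that rose (CDT1 and TK1), a pair of MCM genes that fell and differ in the number of words, and E2F1 itself. Each window runs from 250 bases before to 50 bases after the gene start, from RefSeq on GRCh38.p14, written 5′ to 3′ on the strand of the gene, with E2F words in capitals. The words searched were TTTCCCGC, TTTGGCGC, TTTCGCGC and TTTGCCGC on both strands. Words that overlap were counted separately, and palindromic stretches can be counted on both strands.
CDT1 (chr16:88803539-88803838, plus strand): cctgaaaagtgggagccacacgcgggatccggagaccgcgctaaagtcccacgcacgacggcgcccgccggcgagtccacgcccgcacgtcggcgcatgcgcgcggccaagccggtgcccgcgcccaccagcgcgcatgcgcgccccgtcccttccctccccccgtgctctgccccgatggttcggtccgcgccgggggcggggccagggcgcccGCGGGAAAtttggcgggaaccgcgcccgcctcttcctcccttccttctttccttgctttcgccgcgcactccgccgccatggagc
TK1 (chr17:78187155-78187454, minus strand): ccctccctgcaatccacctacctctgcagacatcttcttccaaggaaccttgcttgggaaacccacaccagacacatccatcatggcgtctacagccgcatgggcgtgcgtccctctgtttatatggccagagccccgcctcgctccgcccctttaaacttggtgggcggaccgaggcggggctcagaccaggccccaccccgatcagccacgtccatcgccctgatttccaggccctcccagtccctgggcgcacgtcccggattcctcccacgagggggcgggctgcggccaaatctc
MCM3 (chr6:52284693-52284992, minus strand): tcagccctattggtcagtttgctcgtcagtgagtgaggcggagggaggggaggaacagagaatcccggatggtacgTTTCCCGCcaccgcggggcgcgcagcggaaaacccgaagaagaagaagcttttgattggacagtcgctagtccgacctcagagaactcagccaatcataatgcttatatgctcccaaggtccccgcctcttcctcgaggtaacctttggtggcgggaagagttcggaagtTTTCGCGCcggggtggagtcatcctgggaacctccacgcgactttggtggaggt
MCM6 (chr2:135876394-135876693, minus strand): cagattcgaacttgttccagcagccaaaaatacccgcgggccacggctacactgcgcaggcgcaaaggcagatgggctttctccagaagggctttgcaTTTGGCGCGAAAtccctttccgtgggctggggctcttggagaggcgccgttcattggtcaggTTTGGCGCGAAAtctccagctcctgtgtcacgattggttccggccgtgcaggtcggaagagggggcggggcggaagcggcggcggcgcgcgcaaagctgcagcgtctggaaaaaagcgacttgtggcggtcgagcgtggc
E2F1 (chr20:33686336-33686635, minus strand): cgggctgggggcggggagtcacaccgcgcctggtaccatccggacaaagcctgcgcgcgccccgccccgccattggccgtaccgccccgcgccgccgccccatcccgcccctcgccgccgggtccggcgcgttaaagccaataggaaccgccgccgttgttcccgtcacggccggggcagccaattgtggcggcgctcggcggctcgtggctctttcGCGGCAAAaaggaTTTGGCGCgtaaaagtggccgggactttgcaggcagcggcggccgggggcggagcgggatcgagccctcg
MCM6 held 4 words, MCM3 and E2F1 held 2 each, CDT1 held 1 and TK1 held 0 in these windows. The 4 words of MCM6 form 2 separate stretches, each of 2 overlapping words. Of the members, 42 had a window in the table, and 19 of them (45.2%) held at least 1 E2F word, against 3.33% of all 27305 windows. The words were present in 8 of 17 members that fell, 1 of 2 that rose and 10 of 23 that did not pass the test, so members with and without a word were found in each class. The core of the hypoxia response element, ACGTG or GCGTG on either strand, was present in 29 members (69%) and in 48.4% of all windows. By class it was present in 11 of 17 members that fell, 2 of 2 that rose and 16 of 23 that did not pass. A match describes the letters only.

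Known targets of the hypoxia factor HIF were read first: VEGFA rose from 10.1 ± 0.428 to 22.2 ± 2.26 RPKM, SLC2A1 from 5.49 ± 0.2202 to 46.9 ± 6.56 RPKM and BNIP3 from 28.7 ± 1.66 to 162 ± 8.54 RPKM (adjusted p = 5.57e-06, 4.15e-09 and 9.52e-10). Of the markers of a triple-negative line, ESR1 was at most 0.209 RPKM in any library and VIM, CD44 and EGFR were expressed, but KRT8 and KRT18, also on that list, were at most 0.0472 and 0.026 RPKM, and ERBB2 lay between 20.2 and 23.7 RPKM. Of 8 measured markers of leukocytes, endothelial cells and fibroblasts, PTPRC, LUM, VWF, PECAM1 and KDR were at most 0.176 RPKM. CD68 rose from 46.7 ± 1.39 to 77.2 ± 3.601 RPKM, COL1A1 rose from 257 ± 21.2 to 390.1 ± 26.9 RPKM and PDGFRA fell from 3.75 ± 0.396 to 2.205 ± 0.324 RPKM, and their part in the results was not tested. Depth was 44.0 to 50.9 M reads per library, and each member except CCNE2 rested on at least 295 estimated reads in every library. Whether the replicates come from independent cultures is not stated. The p-values therefore reflect only how these libraries vary, possibly for technical reasons.

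Most replication genes were slightly lower in hypoxia, and a minority passed the test. At an adjusted p under 0.05 (limma on log2(RPKM + 1), Benjamini-Hochberg over 11884 genes), 19 of 49 fell (38.8%) and 2 rose (4.08%). Over all tested genes 24.4% fell and 12.4% rose. The estimate was below 0 for 45 of 49 members and for 7584 of all 11884 tested genes. The members' median log2 fold change was -0.17, against -0.08 for all tested genes. Changes were small: POLE2 had the most negative value (-0.49) and CDT1 the most positive (0.31). In 33 members every hypoxic library lay below every normoxic one (35.6% of all tested genes), in 2 every hypoxic library lay above (16.4%), and in 14 the groups overlapped. Non-overlapping groups in either direction were thus seen in 35 members, against 52% of all tested genes. CDC7 and PCNA lay just outside the threshold (adjusted p = 0.0547 and 0.0599), and ORC2 just inside (adjusted p = 0.0378).

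The number that fell depended on how libraries were scaled and which were used. The count of members that fell was 10 with median-of-ratios or upper-quartile scaling and 31 with libraries rescaled to equal sums. It was 13, 14 and 11 without normoxia replicate 1, 2 or 3. Over all tested genes the count that fell also dropped without these libraries, from 2901 to 1751, 1614 and 1523. The median log2 fold change was -0.09 for members and -0.01 for all tested genes with median-of-ratios scaling, and -0.23 and -0.14 with equal sums. Such scaling divides each library by a single factor and shifts all genes nearly alike. The gap between members and all genes could therefore hardly change, and its steadiness is no result about the members. Over all genes the split also moved, from 1478 raised and 2901 lowered to 2027 and 1422 with median-of-ratios scaling, 1977 and 1466 with upper-quartile scaling and 1176 and 4219 with equal sums.

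**Figure D1:**
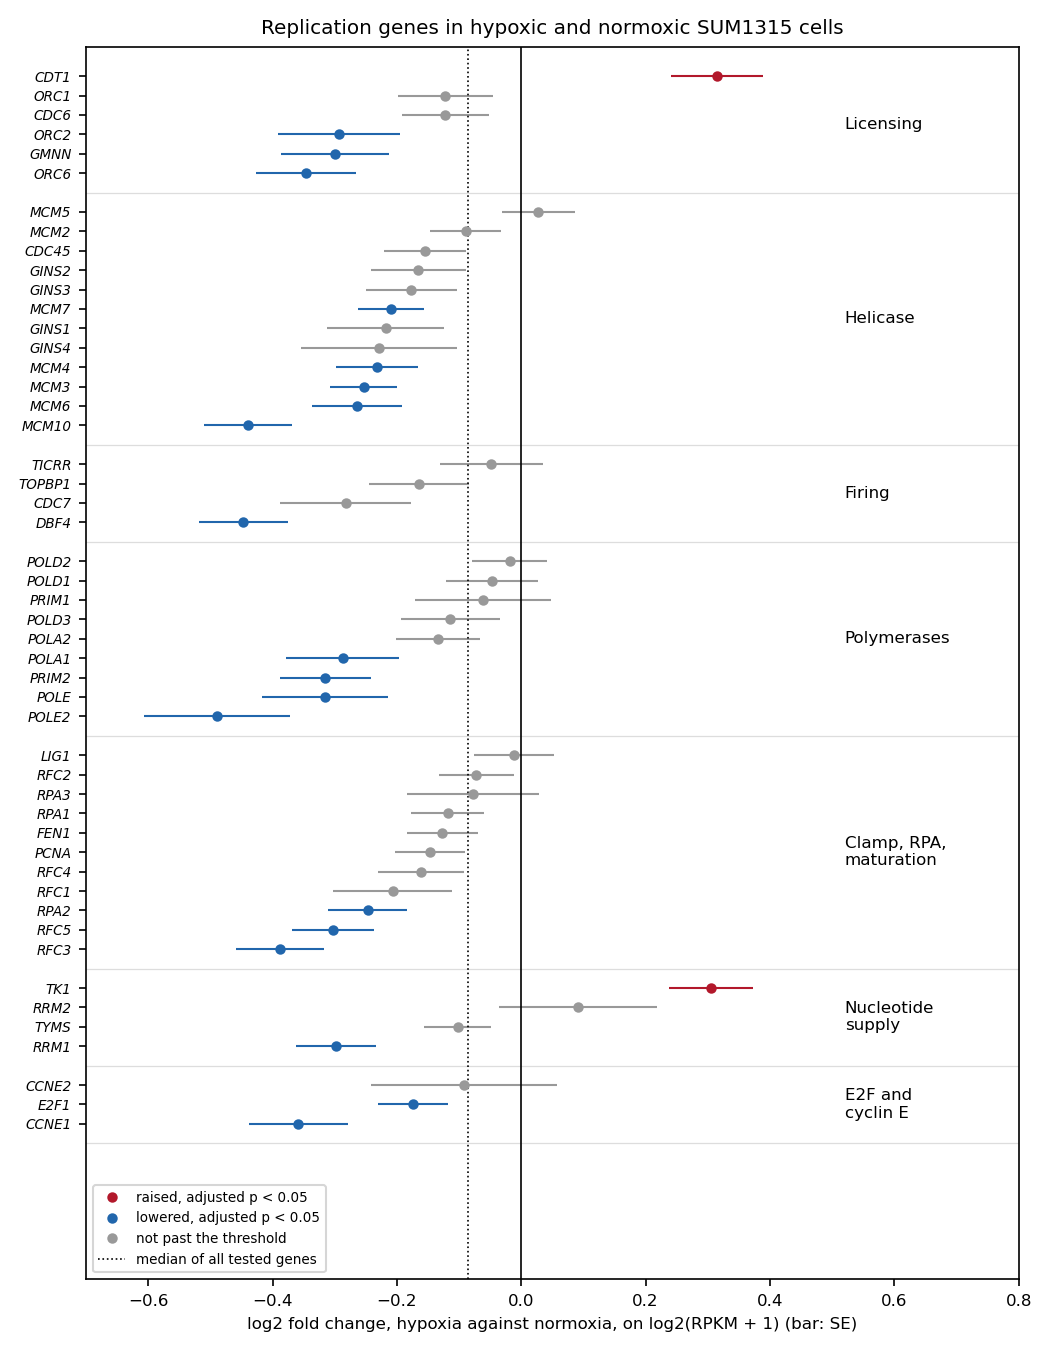
Log2 fold change of each of the 49 genes (x axis, hypoxia against normoxia on log2(RPKM + 1); bars are the SE), grouped by role on the y axis, with the median of all tested genes as a dotted line. Blue marks the 19 genes that fell, red the 2 that rose (CDT1 and TK1) and grey those that did not pass the test.

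Among the 6 licensing genes, 3 fell, 1 rose and 2 did not pass the test, against 24.4% lowered and 12.4% raised over all tested genes. ORC6, a subunit of the origin recognition complex (ENSG00000091651, chromosome 16, 46689643 to 46698394, GRCh38), was at 38.5, 39.5 and 40.3 RPKM in normoxia and 33.1, 32.8 and 26.8 RPKM in hypoxia (log2 fold change -0.35, SE 0.08, adjusted p = 0.00768). All 3 hypoxic libraries were below the normoxic ones, with replicate 3 the lowest. ORC2, another subunit of that complex, was at 6.87, 6.003 and 7.05 RPKM in normoxia and 5.59, 5.68 and 4.49 RPKM in hypoxia (log2 fold change -0.29, SE 0.10, adjusted p = 0.0378), again without overlap. ORC1, the subunit made anew in each G1, was at 12.04, 10.8 and 12.3 RPKM in normoxia and 10.9, 10.03 and 10.98 RPKM in hypoxia, with overlapping groups (adjusted p = 0.224). CDC6, the ATPase that joins ORC to load the ring, was at 24.6, 23.9 and 25.6 RPKM in normoxia and 24.5, 22.2 and 21.2 RPKM in hypoxia (adjusted p = 0.185). Its groups overlapped, with hypoxia replicate 1 inside the normoxic range.

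CDT1, the loader that CDC6 and ORC recruit, moved against the rest of the group. It (ENSG00000167513, chromosome 16, 88803213 to 88809258) was at 33.3, 33.1 and 32.9 RPKM in normoxia and 37.04, 42.2 and 45.3 RPKM in hypoxia, an increase of 25.5% (log2 fold change 0.31, SE 0.07, adjusted p = 0.00804). The normoxic libraries were nearly equal and all hypoxic libraries were higher. Geminin (GMNN, ENSG00000112312, chromosome 6, 24774931 to 24786099), the inhibitor of CDT1, fell and was at 88.3, 94.8 and 91.97 RPKM in normoxia and 71.04, 86.6 and 66.6 RPKM in hypoxia (log2 fold change -0.30, SE 0.09, adjusted p = 0.0204). Hypoxia replicate 2 was close to the lowest normoxic library, but the groups did not overlap. The ratio of CDT1 to GMNN, both per length, was 0.377, 0.349 and 0.357 in normoxia and 0.521, 0.487 and 0.6802 in hypoxia, higher in every hypoxic library than in any normoxic one. That order was fixed by the order of the single genes and is no further result. The transcripts of CDT1 had 64.9% GC and those of GMNN 42.9%. Leaving out normoxia replicate 1, normoxia replicate 3 or hypoxia replicate 3 ended the ORC2 call (adjusted p = 0.115, 0.135 and 0.0941), and leaving out normoxia replicate 2 or 3, or hypoxia replicate 1 or 3, ended that of GMNN (0.0743, 0.0635, 0.0667 and 0.0591). Both calls were also lost with median-of-ratios scaling and with the GC trend removed, those of CDT1 and ORC6 with no filter on low genes (adjusted p = 0.0653 and 0.0761), and CDC6 (log2 fold change -0.12) was at -0.18 without hypoxia replicate 1, when it passed (adjusted p = 0.0491), and at -0.08 without hypoxia replicate 3.

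The helicase genes fell in 5 of 12 cases (41.7%, against 24.4% of all tested genes) and rose in 0, with a median log2 fold change of -0.21. In 10 of the 12 the hypoxic libraries all lay below the normoxic ones, as in 35.6% of all tested genes. MCM10, a scaffold needed to start the helicase (ENSG00000065328, chromosome 10, 13161554 to 13211104), had the lowest adjusted p among them. It was at 15.4, 14.9 and 16.1 RPKM in normoxia and 11.9, 10.7 and 10.9 RPKM in hypoxia (log2 fold change -0.44, SE 0.07, adjusted p = 0.00118), a fall of 27.9%, and its hypoxic libraries were close together. The 6 genes of the MCM ring, whose proteins join in equal numbers, differed widely in messenger RNA. MCM7 was the most abundant and MCM6 the least, 9.69 times apart per length in normoxia and 10.1 times in hypoxia.

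Within the ring 4 of 6 genes fell, against 24.4% of all tested genes. MCM3 (ENSG00000112118, chromosome 6, 52264009 to 52284881) was at 117, 114 and 118 RPKM in normoxia and 101, 93.7 and 98.9 RPKM in hypoxia (log2 fold change -0.25, SE 0.05, adjusted p = 0.0053), with no overlap. MCM7 (ENSG00000166508, chromosome 7, 100092728 to 100101940) was at 212, 207 and 212 RPKM in normoxia and 179, 178 and 188 RPKM in hypoxia (log2 fold change -0.21, SE 0.05, adjusted p = 0.011), and its hypoxic libraries were again all lower. MCM6 was at 21.3, 21.9 and 21.9 RPKM in normoxia and 18.2, 19.3 and 16.3 RPKM in hypoxia (log2 fold change -0.26, SE 0.07, adjusted p = 0.0163), lowest in hypoxia replicate 3. MCM4, in contrast, was lowest in replicate 2. It was at 71.9, 70.5 and 72.9 RPKM in normoxia and 64, 55.4 and 63.9 RPKM in hypoxia (log2 fold change -0.23, SE 0.07, adjusted p = 0.0197). MCM2 was at 85.8, 82.7 and 84.5 RPKM in normoxia and 79.6, 75.1 and 83.01 RPKM in hypoxia and MCM5 at 41.4, 39.7 and 40.8 RPKM in normoxia and 41.4, 39.7 and 43.2 RPKM in hypoxia, with overlapping groups in both (adjusted p = 0.236 and 0.735). Together the 6 ring genes summed to 536 to 549.9 RPKM in normoxia and 462 to 493 RPKM in hypoxia. The MCM4 call was lost without normoxia replicate 1, 2 or 3 (adjusted p = 0.0647, 0.0565 and 0.0766), that of MCM6 without normoxia replicate 2 or 3 (0.0628 and 0.0643) and that of MCM7 without normoxia replicate 1 or 3 (0.0552 and 0.0518). All 3 calls were lost with median-of-ratios scaling (MCM4, MCM6 and MCM7: 0.11, 0.082 and 0.0896), whereas those of MCM3 and MCM10 were kept under all 17 alternatives.

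CDC45 and the GINS subunits, which complete the helicase, did not pass the test. In all 5 every hypoxic library lay below the normoxic ones, an order seen in 35.6% of all tested genes. CDC45 had means of 30.04 ± 2.17 RPKM in normoxia and 26.8 ± 0.342 RPKM in hypoxia (adjusted p = 0.0866), GINS1 of 10.7 ± 0.451 RPKM in normoxia and 9.098 ± 1.25 RPKM in hypoxia (0.0889), GINS2 of 7.95 ± 0.458 RPKM in normoxia and 6.97 ± 0.223 RPKM in hypoxia (0.106) and GINS3 of 12.5 ± 0.717 RPKM in normoxia and 10.98 ± 0.529 RPKM in hypoxia (0.0784). GINS4 was at 18.1, 18.4 and 18.3 RPKM in normoxia and 17.8, 11.7 and 17.5 RPKM in hypoxia, with replicate 2 far below the rest (log2 fold change -0.23, adjusted p = 0.169). Without hypoxia replicate 2 its log2 fold change was -0.05. The log2 fold change of GINS1 was -0.22 with all libraries, -0.29 without hypoxia replicate 2, when it passed (adjusted p = 0.0373), and -0.11 without hypoxia replicate 3.

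Of the 4 genes that fire origins, DBF4 fell and 3 did not pass the test, a share of 25% that is near the 24.4% of all tested genes. DBF4, the regulatory subunit of the CDC7 kinase (ENSG00000006634, chromosome 7, 87876216 to 87909541), was at 14.2, 14.6 and 14.9 RPKM in normoxia and 11.1, 10.4 and 9.72 RPKM in hypoxia (log2 fold change -0.45, SE 0.07, adjusted p = 0.00115), a fall of 28.4% without overlap. Most of this signal was assigned to transcripts not annotated as protein-coding, chiefly DBF4-204 and DBF4-202, annotated as targets of nonsense-mediated decay. Protein-coding transcripts held 3.25% of the RPKM of DBF4 in normoxia and 1.79% in hypoxia, and with those alone the gene was under the filter. How reads shared by transcripts were split is not given in the sources, so these shares are estimates. Its kinase partner CDC7 was at 17.4, 18.2 and 18.4 RPKM in normoxia and 15.98, 16.4 and 11.8 RPKM in hypoxia (log2 fold change -0.28, adjusted p = 0.0547). Hypoxia replicate 3 was much the lowest for CDC7, and its log2 fold change was -0.14 without that library and -0.36 without replicate 2, when it passed (adjusted p = 0.0232). TOPBP1 and TICRR, adaptors that bring CDC45 to the ring, were at 25.4 ± 0.555 RPKM in normoxia and 22.7 ± 2.58 RPKM in hypoxia and at 11.1 ± 0.3099 RPKM in normoxia and 10.7 ± 1.15 RPKM in hypoxia (adjusted p = 0.128 and 0.671).

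Polymerase genes fell in 4 of 9 cases (44.4%, against 24.4% of all tested genes) and rose in 0, with a median of -0.13. The epsilon polymerase, which copies the leading strand, had both of its member genes lowered. Its second subunit POLE2 (ENSG00000100479, chromosome 14, 49643555 to 49688422) was at 8.38, 8.79 and 9.41 RPKM in normoxia and 5.88, 7.47 and 4.93 RPKM in hypoxia (log2 fold change -0.49, SE 0.12, adjusted p = 0.00876), the largest fall of all members at 31.2%. Its hypoxic libraries spread widely but stayed below the normoxic ones. The catalytic subunit POLE was at 31.9, 29.4 and 26.4 RPKM in normoxia and 25.7, 19.6 and 24.8 RPKM in hypoxia (log2 fold change -0.32, SE 0.10, adjusted p = 0.0315), lowest in hypoxia replicate 2. Polymerase alpha with primase, which lays down primers, had POLA1 and PRIM2 lowered. PRIM2, the large primase subunit (ENSG00000146143, chromosome 6, 57314805 to 57646849), was at 18.5, 17.6 and 19.04 RPKM in normoxia and 15.6, 14.9 and 13.4 RPKM in hypoxia (log2 fold change -0.32, SE 0.07, adjusted p = 0.00768), without overlap. POLA1, the catalytic subunit of polymerase alpha, was at 6.73, 6.01 and 6.67 RPKM in normoxia and 5.65, 5.196 and 4.55 RPKM in hypoxia (log2 fold change -0.29, SE 0.09, adjusted p = 0.0292). Its partners POLA2 and PRIM1 were at 13.01 ± 0.487 RPKM in normoxia and 11.8 ± 0.345 RPKM in hypoxia and at 8.68 ± 0.814 RPKM in normoxia and 8.32 ± 1.33 RPKM in hypoxia (adjusted p = 0.137 and 0.679).

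Of the delta polymerase, which copies the lagging strand, the 3 member subunits did not pass the test. POLD1, the catalytic subunit, was at 30.4, 29.9 and 27.9 RPKM in normoxia and 27.5, 26.5 and 31.5 RPKM in hypoxia, and POLD2 at 140.1, 143 and 145 RPKM in normoxia and 131, 145 and 147 RPKM in hypoxia, with overlapping groups and log2 fold changes of -0.05 and -0.02 (SE 0.07 and 0.06). The accessory subunit POLD3 was at 12.1 ± 0.664 RPKM in normoxia and 11.2 ± 0.96 RPKM in hypoxia (adjusted p = 0.279). Leaving out normoxia replicate 1, normoxia replicate 2 or hypoxia replicate 2 ended the POLE call (adjusted p = 0.116, 0.0824 and 0.0772), and leaving out normoxia replicate 1, normoxia replicate 3 or hypoxia replicate 3 ended that of POLA1 (0.103, 0.101 and 0.0688). Both were lost with median-of-ratios scaling, PRIM2 was lost with the GC trend removed (adjusted p = 0.0849), that of POLE2 with no filter (0.0982), and with protein-coding transcripts alone the group median was -0.28.

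Clamp, single-strand binding and maturation genes fell in 3 of 11 cases and rose in 0, with a median of -0.15. The share of 27.3% is near the 24.4% of all tested genes that fell. RFC3 and RFC5, both subunits of the loader that opens the PCNA ring, fell. RFC3 (ENSG00000133119, chromosome 13, 33818049 to 33966558) was at 34.7, 33.6 and 36.1 RPKM in normoxia and 27.8, 27.5 and 23.9 RPKM in hypoxia (log2 fold change -0.39, SE 0.07, adjusted p = 0.00235), and RFC5 (ENSG00000111445, chromosome 12, 118013588 to 118033130) at 20.1, 18.98 and 20.9 RPKM in normoxia and 15.5, 16.4 and 16.2 RPKM in hypoxia (log2 fold change -0.30, SE 0.07, adjusted p = 0.00573). Neither pair of groups overlapped, and both calls were kept under all 17 alternatives. RPA2, a subunit of the protein that coats single-stranded DNA, was at 46.6, 47.3 and 51.2 RPKM in normoxia and 41.8, 41.6 and 38.4 RPKM in hypoxia (log2 fold change -0.25, SE 0.06, adjusted p = 0.0121). That call was lost without normoxia replicate 3 (adjusted p = 0.0707), with median-of-ratios scaling and with the GC trend removed.

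PCNA itself, the sliding clamp, was at 90.9, 88.1 and 94.1 RPKM in normoxia and 83.4, 84.2 and 78.9 RPKM in hypoxia (log2 fold change -0.15, adjusted p = 0.0599). The groups did not overlap. PCNA passed under 1 of 17 alternatives (libraries rescaled to equal sums, adjusted p = 0.00984), and with the GC trend removed its log2 fold change was -0.0047 (adjusted p = 0.943). The other loader subunits RFC1, RFC2 and RFC4 had log2 fold changes of -0.21, -0.07 and -0.16 (adjusted p = 0.109, 0.362 and 0.0856), and RFC4 was at -0.22 without hypoxia replicate 2, when it passed (0.0234), and at -0.11 without hypoxia replicate 3. RPA1 and RPA3, the other subunits of the coat, were at 34.6 ± 1.15 RPKM in normoxia and 31.8 ± 0.587 RPKM in hypoxia and at 9.23 ± 0.773 RPKM in normoxia and 8.74 ± 1.34 RPKM in hypoxia (adjusted p = 0.127 and 0.587). FEN1, which trims the flaps of Okazaki fragments, and LIG1, which seals them, were at 51.4 ± 1.56 RPKM in normoxia and 47.04 ± 1.496 RPKM in hypoxia and at 24.9 ± 1.12 RPKM in normoxia and 24.7 ± 1.19 RPKM in hypoxia (adjusted p = 0.101 and 0.899).

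The 4 genes of nucleotide supply went different ways: TK1 rose, RRM1 fell, and TYMS and RRM2 did not pass the test. The share that fell, 25%, is near the 24.4% of all tested genes. The 25% that rose is a single gene, against 12.4% of all tested genes. TK1, the thymidine kinase of the salvage route (ENSG00000167900, chromosome 17, 78174075 to 78187233), was at 136, 128 and 135 RPKM in normoxia and 150.2, 167 and 178 RPKM in hypoxia (log2 fold change 0.30, SE 0.07, adjusted p = 0.00618), a rise of 23.96%. All hypoxic libraries were above the normoxic ones, replicate 3 the most. TYMS, thymidylate synthase of the de novo route (ENSG00000176890, chromosome 18, 657604 to 673578), was the most abundant member. It was at 405, 396 and 411 RPKM in normoxia and 363, 383 and 383 RPKM in hypoxia (log2 fold change -0.10, adjusted p = 0.152), and no hypoxic library reached the normoxic range. The ratio of TK1 to TYMS was 0.336, 0.324 and 0.329 in normoxia and 0.414, 0.436 and 0.465 in hypoxia, higher in every hypoxic library. This order, too, was fixed by that of the single genes. The transcripts of TK1 had 61.7% GC and those of TYMS 49.9%.

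Ribonucleotide reductase, which makes deoxynucleotides and needs oxygen to form the radical in its small subunit, has RRM1 and RRM2 among the members. RRM2B, another gene for the small subunit, is not a member. It fell from 8.06 ± 0.183 to 6.59 ± 0.753 RPKM in hypoxia (log2 fold change -0.26, SE 0.09, adjusted p = 0.036). RRM1, the large subunit (ENSG00000167325, chromosome 11, 4094707 to 4138876), was at 46.5, 44.6 and 46.4 RPKM in normoxia and 38.4, 38.8 and 34.2 RPKM in hypoxia (log2 fold change -0.30, SE 0.06, adjusted p = 0.00555), lower in each hypoxic library. RRM2, a small subunit, was at 93.7, 86.2 and 93.7 RPKM in normoxia and 94.5, 78.1 and 124 RPKM in hypoxia (adjusted p = 0.597). Hypoxia replicate 3 was the highest and replicate 2 the lowest of all 6, so that the RRM2 log2 fold change was 0.09 with all libraries and -0.08 without replicate 3. Most of this RRM2 value came from a short transcript annotated as retaining an intron (RRM2-209, 644 bases), which held 61.6% ± 1.04 in normoxia and 59.5% ± 4.31 in hypoxia of the RPKM of the gene. With protein-coding transcripts alone the log2 fold change of RRM2 was -0.12 (adjusted p = 0.202). The call of RRM1 was lost with the GC trend removed (adjusted p = 0.0508) and that of TK1 with no filter on low genes (0.0591). The group median was -0.01 as deposited and turned to 0.08 with median-of-ratios scaling, 0.07 with upper-quartile scaling, 0.07 with the GC trend and 0.03 with the length trend removed. It moved down to -0.12 with protein-coding transcripts alone, -0.10 without hypoxia replicate 3, -0.07 with equal sums and -0.07 with limma-voom, so its sign depended on the setting.

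**Figure D2:**
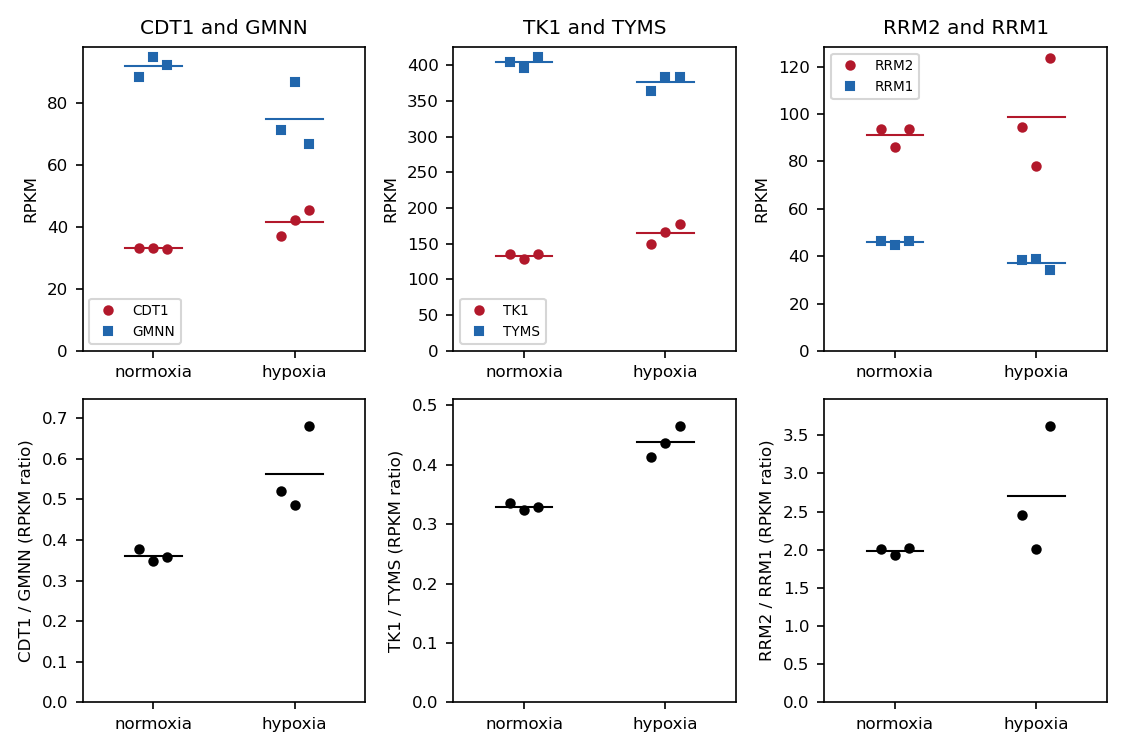
Upper panels: RPKM of CDT1 and GMNN, TK1 and TYMS, and RRM2 and RRM1 in each library (points) with the group mean (line). Lower panels: the ratio of the named pair in each library, where CDT1 to GMNN and TK1 to TYMS are higher in all 3 hypoxic libraries and RRM2 to RRM1 overlaps between groups. The order of CDT1 to GMNN and of TK1 to TYMS follows from the single genes in the upper panels.

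E2F1 and CCNE1, which drive entry into S phase, fell, and CCNE2 did not pass the test. In this group of 3 genes 66.7% thus fell, against 24.4% of all tested genes. E2F1, the activating transcription factor (ENSG00000101412, chromosome 20, 33675683 to 33686404), was at 40.2, 39.6 and 40.7 RPKM in normoxia and 34.6, 36.3 and 35.5 RPKM in hypoxia (log2 fold change -0.17, SE 0.06, adjusted p = 0.0315), with tight groups that did not overlap. Its call was lost without normoxia replicate 1, 2 or 3 (adjusted p = 0.112, 0.0924 and 0.118) and with median-of-ratios scaling (0.236). Cyclin E1 (CCNE1, ENSG00000105173, chromosome 19, 29811898 to 29824308) was at 16.4, 15.1 and 16.2 RPKM in normoxia and 11.8, 13.5 and 11.3 RPKM in hypoxia (log2 fold change -0.36, SE 0.08, adjusted p = 0.00611), and this call was kept under all 17 alternatives.

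The fall of CCNE1 was not even over its transcripts. CCNE1-201, the main one, was at 10.7, 10.1 and 10.6 RPKM in normoxia and 9.09, 10.8 and 9.16 RPKM in hypoxia, with overlapping groups. CCNE1-203 was at 3.19, 1.87 and 2.29 RPKM in normoxia and 1.09, 0.8696 and 1.08 RPKM in hypoxia, and CCNE1-202 at 1.13, 1.85 and 2.01 RPKM in normoxia and 0.816, 0.49 and 0.224 RPKM in hypoxia, with every hypoxic library of both below the normoxic ones. The share of CCNE1-201 in the RPKM of the gene was therefore 65.9% ± 1.07 in normoxia and 79.2% ± 2.12 in hypoxia; these shares were not tested. CCNE2, the second cyclin E gene, was at 1.83, 1.36 and 1.299 RPKM in normoxia and 1.51, 1.77 and 0.823 RPKM in hypoxia, and its exons overlap those of INTS8, whose reads may be counted in.

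**Figure D3:**
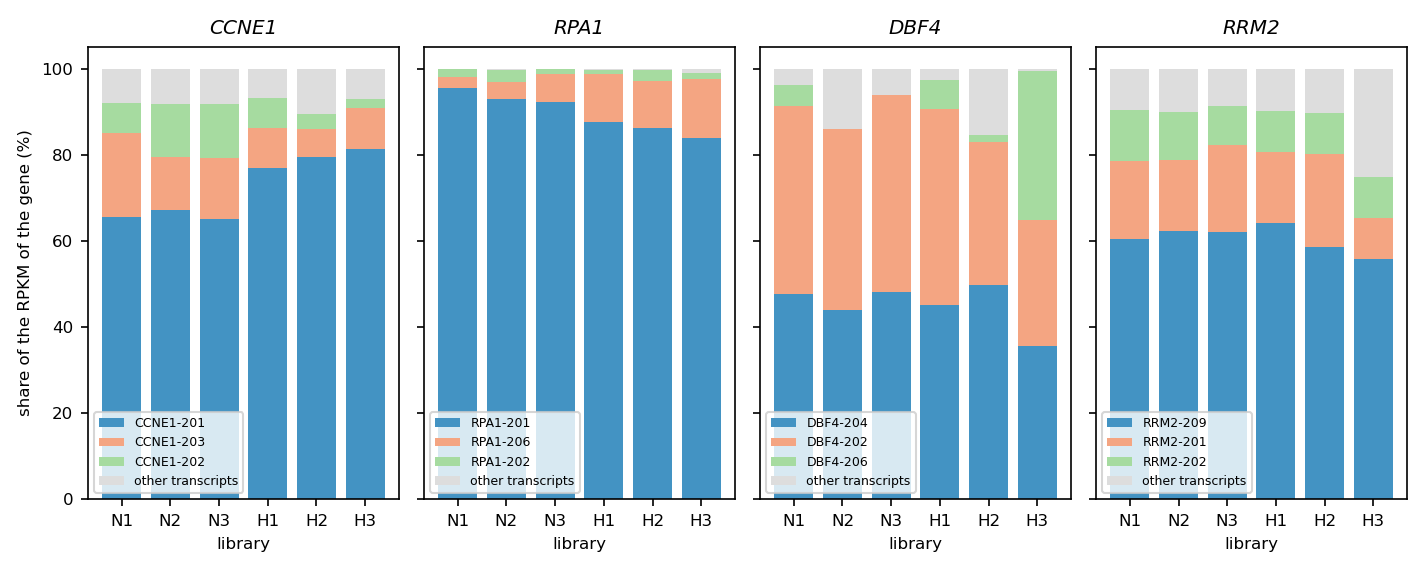
Share of the RPKM of CCNE1, RPA1, DBF4 and RRM2 held by their 3 leading transcripts and by all others (y axis, percent) in the normoxic (N1 to N3) and hypoxic (H1 to H3) libraries. CCNE1-201 holds 65.1% to 67.1% in normoxia and 77.0% to 81.2% in hypoxia, and the intron-retaining RPA1-206 holds 2.47% to 6.56% and 10.9% to 13.8%.

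Other genes of the pathway, from lists of names chosen alongside the members, were counted the same way, against 24.4% lowered and 12.4% raised over all tested genes. Of 24 further replisome genes 11 (45.8%) fell and 1 rose, with a median of -0.21. Topoisomerase TOP1 fell from 40.2 ± 1.66 to 27.3 ± 1.66 RPKM, ORC4 from 17.4 ± 2.35 to 12.9 ± 0.644 RPKM and the fork protector CLSPN from 11.5 ± 0.232 to 8.55 ± 1.103 RPKM, while POLD4, the smallest subunit of polymerase delta, rose from 26.5 ± 1.59 to 44.7 ± 3.62 RPKM (log2 fold change 0.73, SE 0.07). Of 19 further nucleotide enzymes 9 (47.4%) fell and 0 rose, with a median of -0.25. Among them the dNTP hydrolase SAMHD1 fell from 8.59 ± 0.144 to 5.75 ± 0.481 RPKM, CTP synthase CTPS1 from 74.3 ± 1.87 to 54.8 ± 3.48 RPKM and the pyrimidine enzyme UMPS from 22.5 ± 0.733 to 17.2 ± 0.679 RPKM.

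Of 25 tested genes that control S phase entry 11 (44%) fell and 2 (8%) rose, against 24.4% and 12.4% of all tested genes, with a median of -0.19. CDKN1A, the CDK inhibitor p21, rose from 2.27 ± 0.132 to 6.23 ± 0.962 RPKM (adjusted p = 2.3e-05, log2 fold change 1.14), and the CDK4 and CDK6 inhibitor CDKN2D from 10.4 ± 0.0827 to 12.9 ± 1.397 RPKM. The repressor E2F6 fell from 9.14 ± 0.303 to 6.47 ± 0.704 RPKM, the phosphatase CDC25A, which activates CDK2, from 10.2 ± 0.533 to 7.37 ± 0.622 RPKM, and CDK6 from 12.9 ± 0.138 to 9.88 ± 1.75 RPKM. Of 10 genes of the ATR checkpoint 5 (50%) fell and 0 rose (median -0.23), among them the kinase ATR itself (4.26 ± 0.449 RPKM in normoxia and 2.78 ± 0.331 RPKM in hypoxia) and the clamp genes RAD9A and HUS1 (log2 fold changes -0.33 and -0.26). Of 7 genes that rebuild chromatin behind the fork 3 (42.9%) fell and 0 rose (median -0.21): the methyltransferase DNMT1 (17.2 ± 1.24 RPKM in normoxia and 12.4 ± 0.791 RPKM in hypoxia) and the histone chaperones CHAF1B and NASP (log2 fold changes -0.22 and -0.21). With median-of-ratios scaling the numbers that fell and rose were 7 and 2 for the replisome list, 5 and 1 for nucleotide enzymes, 4 and 2 for S phase entry, 2 and 0 for the checkpoint and 1 and 0 for chromatin, and the 5 medians lay between -0.17 and -0.10. Over all 11875 genes tested with that scaling, 1422 fell and 2027 rose, with a median of -0.01.

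Base composition moved with these results. Over all 11884 tested genes the median log2 fold change was -0.24 where transcripts had under 40% GC, -0.18 from 40 to 45%, -0.12 from 45 to 50%, -0.06 from 50 to 55%, -0.01 from 55 to 60% and 0.07 above that. Of the 16 members from 40 to 45% GC 9 fell, in a range where 36% of all tested genes fell. Under 40% GC 0 of 2 members fell (41.8% of all tested genes). From 45 to 50% GC 5 of 10 fell (28.7%), and from 50 to 55% 2 of 11 (21.9%). From 55 to 60% GC 2 of 5 fell (16.3%), and above that 1 of 5 (8.76%). The 2 members that rose, CDT1 and TK1, had 64.9% and 61.7% GC, in a range where 25% of all tested genes rose. Across the 49 members, which share their libraries, log2 fold change and GC content had r = 0.602 (Spearman 0.527), and across all tested genes r = 0.353 (Spearman 0.42). With the GC trend removed from each library 11 of 49 members fell and the same 2 rose, with a median of -0.08. Over all 11884 tested genes 1820 fell and 2003 rose in that setting. GMNN, MCM4, MCM6, ORC2, POLA1, PRIM2, RPA2 and RRM1 lost their calls and no member gained one.

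**Figure D4:**
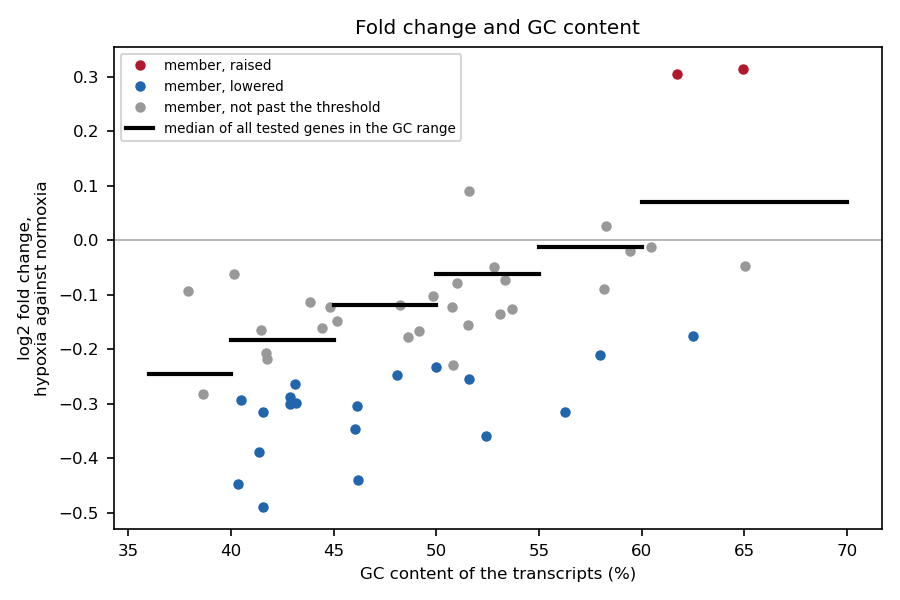
GC content of the transcripts of each member (x axis, percent) against its log2 fold change in hypoxia (y axis), with the median of all tested genes in each GC range as black lines. CDT1 and TK1 lie above the line at over 60% GC, and the members that fell lie below the line of their range.

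For 41 of 49 members the SD of log2(RPKM + 1) was larger among the hypoxic than among the normoxic libraries. The wider spread was not particular to the members. Over all genes compared, the mean chi-square per gene was 20.85 to 25.73 between hypoxic replicates and 6.69 to 12.84 between normoxic ones. Hypoxia replicate 3 was the lowest of its group for 26 of 49 members and the highest for 13, including CDT1, TK1 and RRM2. These counts were not made over all genes. Hypoxia replicate 3 was also the library with the fewest reads (44.0 M, against 49.4 M or more in each other library). The median deviation of members from the normoxia mean was -0.15, -0.15 and -0.22 in hypoxia replicates 1, 2 and 3, on the log2(RPKM + 1) scale. Over all tested genes it was -0.08, -0.08 and -0.07. For the firing genes the median deviation was -0.10, -0.16 and -0.44, and for the helicase genes -0.15, -0.19 and -0.18. The medians of the firing genes were spread over a wider range than those of the helicase genes. They rest on 4 genes against 12, and the difference was not tested. Without hypoxia replicate 3, 16 members fell and 2 rose. Over all 11884 tested genes 2739 fell and 1280 rose in that setting.

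**Figure D5:**
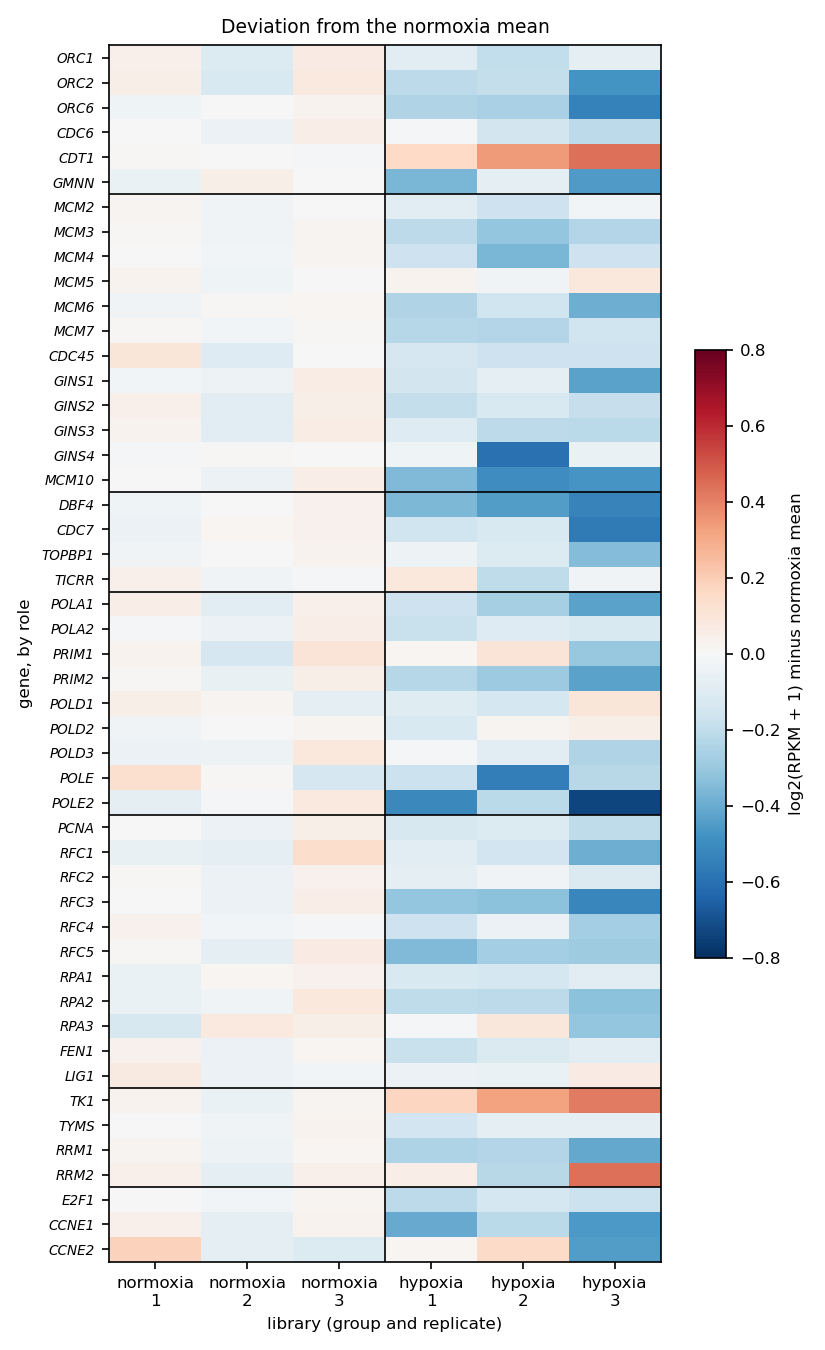
Difference of each member from its normoxia mean in log2(RPKM + 1) (colour, blue lower and red higher), with genes by role in rows and the 6 libraries in columns. Hypoxic columns are mostly blue, CDT1 and TK1 are red in all 3, and RRM2 is red in hypoxia replicates 1 and 3 and blue in 2.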

How the data were processed

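The authors deposited 1 table with RPKM of 165956 Ensembl transcripts, whose 6 columns carry names found in the samples' labels. The unit was inferred from the values. The submitters' processing notes name the builds GRCh38 and hg38 and the tools HISAT2, Partek, SAMtools and Trimmomatic; annotation release and strand setting: not given in the sources used here. Per the labels' protocols, libraries were made with NEBNext Ultra RNA, a kit that does not mark strand.

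Transcripts were joined by identifier to GENCODE 29 on GRCh38 (140004, or 84.4%, had an entry), and sums were formed for 26409 genes. Transcripts without an entry held 3.44% to 3.68% of the RPKM. Summing RPKM gives short transcripts more weight than reads would. Depth came from the smallest steps of genes with 1 transcript (79.0% to 80.2% of values within 0.1 of a whole multiple) and was 44.0 to 50.9 M reads, which covers counting error only. The 11884 genes above 1 RPKM in 3 or more libraries entered limma (3.58.1, mean-variance trend, R 4.3.3) on log2(RPKM + 1), a scale that understates changes of low genes, without a block and with Benjamini-Hochberg adjustment at 0.05. The fit was tested on simulated data.

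The members, lists and rules were chosen with earlier results of these data known. Every member is named. Values per library are given for those past the threshold and for PCNA, MCM2, CDC6, ORC1, E2F1, CCNE1, RRM2 and TYMS, and for others where their spread matters. Of each further list up to 3 raised and 3 lowered genes with the largest changes are named, and RRM2B is named beside RRM2. Exons of 23 members overlap another gene, among them TYMS (ENOSF1), MCM7 (AP4M1), DBF4 (SLC25A40), RFC5 (WSB2), TICRR (KIF7), POLA2 and CCNE2 (INTS8). PRIM1 (NACA), RFC4 (EIF4A2) and FEN1 (FADS2 and TMEM258) are also among them, with neighbours more abundant than the member itself. PCNA, DBF4, FEN1, RFC3, RFC5, RPA2, RPA3, RRM2, TYMS and PRIM2 have pseudogenes or partial copies. The values of all these genes are less certain. Replicates were compared before averaging, and no libraries agreed within counting noise (mean chi-square per gene of 6.69 or more). Alternatives were 3 other scalings, a pseudocount of 0.1, a block for the replicate number, the low-value filter dropped or set to 5 RPKM, each library left out in turn, protein-coding transcripts only, GC or length trends removed by lowess (span 0.5), and limma-voom on reads estimated from RPKM, length and depth. Other steps ran in Python 3.11.15 (pandas 2.3.3, numpy 2.4.6), and figures in matplotlib 3.10.9.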

Additional observations from a re-analysis of the deposited data

How the results depend on the processing

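Both members that rose kept their direction under all 17 alternatives, and the 19 that fell kept theirs; 6 calls of a fall (MCM3, MCM10, RFC3, RFC5, CCNE1 and, where tested, DBF4) were kept in each. Without 1 library at a time, 11 to 21 members fell and 2 rose each time, 1523 to 2866 genes fell in all, and the median log2 fold change was -0.207 to -0.143 for members and -0.234 to -0.176 for helicase genes. The same settings turned the sign of uncalled members: MCM5 -0.00217 to 0.0564, TICRR -0.115 to 0.0277, PRIM1 -0.144 to 0.0587, POLD1 -0.118 to 0.00117, POLD2 -0.0501 to 0.0337, RPA3 -0.161 to 0.0377, LIG1 -0.0496 to 0.023, RRM2 -0.0833 to 0.246 and CCNE2 -0.217 to 0.0847.

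With no filter, the counts were members that rose 0, members that fell 10, all genes that fell 1367. With median-of-ratios scaling, the counts were members that fell 10, all genes that fell 1422, and the median log2 fold changes were members -0.0901, licensing -0.129, helicase -0.132, polymerase -0.0551, clamp -0.0625, and the sign turned for TICRR 0.0301, PRIM1 0.0145, POLD1 0.036, POLD2 0.0662, RFC2 0.0105, LIG1 0.0705. With upper-quartile scaling, the counts were members that fell 10, all genes that fell 1466, and the median log2 fold changes were members -0.095, helicase -0.138, polymerase -0.0603, clamp -0.068, and the sign turned for TICRR 0.0251, PRIM1 0.00955, POLD1 0.0306, POLD2 0.0607, RFC2 0.00511, LIG1 0.0652. With libraries rescaled to equal sums, the counts were members that fell 31, and the median log2 fold changes were members -0.23, helicase -0.279, polymerase -0.198, and the sign turned for MCM5 -0.0398. With GC trend removed, the counts were members that fell 11, all genes that fell 1820, and the median log2 fold changes were members -0.0814, licensing -0.0654, helicase -0.094, firing -0.0214, clamp -0.0231, and the sign turned for CDC6 0.0246, TOPBP1 0.0299, TICRR 0.00623, PRIM1 0.151, POLD3 0.0469, CCNE2 0.152. With length trend removed, the counts were members that fell 12, all genes that fell 1599, and the median log2 fold changes were members -0.106, licensing -0.104, helicase -0.121, polymerase -0.0423, and the sign turned for MCM2 0.0222, TICRR 0.108, POLD1 0.0439, POLD2 0.0171, RPA1 0.00463, LIG1 0.0858. With protein-coding transcripts only, the median log2 fold changes were polymerase -0.28, and the sign turned for RFC2 0.0167, RRM2 -0.12. With limma-voom on estimated reads, the median log2 fold changes were polymerase -0.276, and the sign turned for RRM2 -0.0264.

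With the replicate number as a block 19 members fell and 2 rose (E2F1 was lost and CDC7 gained), and 2664 and 1465 genes over all. Libraries of the same number did not pair (correlations of deviations 0.0901, 0.0301 and -0.227), and not every library correlated best with its own number. The cause of these shifts was not tested. With 3 libraries a group an exact permutation test cannot give a p under 0.1. Reads per member limit CCNE2 most, at 94 estimated reads in 1 library.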

Other observations

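Transcript composition differed between groups for a few members, as estimated by the authors' counting and without a test. RPA1-201, the main coding transcript of RPA1, was at 31.8, 32.5 and 32.7 RPKM in normoxia and 27.7, 26.9 and 27.1 RPKM in hypoxia, lower in every hypoxic library, while the intron-retaining RPA1-206 was at 0.822, 1.37 and 2.33 RPKM in normoxia and 3.52, 3.41 and 4.48 RPKM in hypoxia, higher in every one. In TICRR the coding TICRR-201 was at 7.57, 7.95 and 7.53 RPKM in normoxia and 6.99, 5.92 and 6.41 RPKM in hypoxia, and TICRR-203, annotated as a target of nonsense-mediated decay, at 2.52, 2.06 and 2.4 RPKM in normoxia and 3.502, 2.57 and 3.14 RPKM in hypoxia. TICRR-201 was lower and TICRR-203 higher in every hypoxic library. The share of POLA2-203, which retains an intron, was 18.2% ± 8.602 in normoxia and 31.5% ± 8.77 in hypoxia, with overlapping groups. MCM4 showed no such order: MCM4-223 was at 24.1, 24.1 and 27.1 RPKM in normoxia and 17.2, 25.2 and 12.9 RPKM in hypoxia and MCM4-217 at 22.8, 24.1 and 21.5 RPKM in normoxia and 22.7, 9.55 and 26.6 RPKM in hypoxia, so that the leading transcript differed between hypoxic libraries while the gene total was lower in all 3. With protein-coding transcripts alone, RPA1 and POLA2 passed the test (adjusted p = 0.00937 and 0.00892), with log2 fold changes of -0.23 for RPA1 and -0.37 for POLA2.

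Ratios of partners within a complex, per length, overlapped between groups in 3 of 4 further pairs. PRIM2 to PRIM1 was 2.09, 2.26 and 2.03 in normoxia and 1.78, 1.59 and 1.96 in hypoxia, lower in each hypoxic library. DBF4 to CDC7 was 0.814, 0.801 and 0.807 in normoxia and 0.694, 0.632 and 0.8203 in hypoxia, POLE2 to POLE 0.263, 0.299 and 0.356 in normoxia and 0.229, 0.381 and 0.198 in hypoxia, and POLA2 to POLA1 1.92, 2.09 and 2.03 in normoxia and 2.02, 2.32 and 2.61 in hypoxia, with overlapping groups in each.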
